A study of Xenopus laevis with 12 samples.

Results

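In Xenopus laevis foregut explants cultured with retinoic acid (RA), 23 gene IDs stood under 50% of their vehicle level at 500 nM RA. Their log2 ratios to vehicle were -0.48 to 0.89 at 25 nM and -0.47 to 0.19 at 200 nM RA. Some of these IDs were thus lower than vehicle at these doses too, by less than at 500 nM. They were chosen by their values in these libraries from a table of 44478 IDs. Counts were scaled to a fixed library total (CPM), averaged over the 3 libraries of a group, and set against the DMSO mean as a log2 ratio after adding 0.5 CPM to both. A member had a DMSO mean of at least 3 CPM, a log2 ratio of -1 or less at 500 nM, and ratios over -0.5 at 25 nM and at 200 nM. Of the 16091 IDs that reached 3 CPM in DMSO, 514 were at or under -1 at 500 nM, and the 23 members are 4.47% of these. Levels at every dose were thus part of the choice, and comparisons with DMSO are given below as descriptions. The members are numbered from 1, for the lowest ratio at 500 nM, to 23.

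The tissue was foregut endoderm dissected from wild-type embryos (stock NXR_0031) at Nieuwkoop-Faber stage 15. Explants were cultured for 16 hours at 15 °C and had then reached stage 25. The 4 groups of 3 libraries were vehicle (0.1% DMSO) and RA at 25, 200 and 500 nM, and each library held the RNA of 8 pooled explants. The labels do not state whether the RA groups also received DMSO. Whether the 3 pools of a group had different parents or dates is not in the labels, so a p-value here sets a difference against the scatter of these pools alone. Total counts ran from 17782601 in DMSO replicate 2 to 39147729 in 500 nM replicate 1.

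Retinoic acid is made from vitamin A and enters the nucleus, where it binds retinoic acid receptors that sit on DNA with retinoid X receptors and switch nearby genes on. Cells limit the signal by breaking RA down with Cyp26 enzymes. In the embryo RA sets position along the front-to-back axis, and in foregut endoderm it takes part in placing the lung, pancreas and other organs. Genes can also fall under RA, for instance through repressors that RA switches on first.

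The IDs of the deposited tables are not paired with gene names, and 0 of the 44478 matched a RefSeq gene table of the frog. The members therefore have no symbol, role, position or sequence here, and the labelled tissue could not be checked against marker genes. The 4 members named by ID are those with the 2 lowest ratios at 500 nM and those with the 2 highest ratios at a lower dose. In pooled tissue, fewer cells of a type and less RNA per cell cannot be told apart.

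Most IDs that were low at 500 nM were already low at the lower doses. Of the 514, 322 (62.6%) stood at or under -0.5 at both 25 and 200 nM. A further 130 (25.3%) did so at 25 nM only and 39 (7.59%) at 200 nM only, which leaves the 23 members. With the bounds turned to another dose, 8 IDs were at or under -1 at 25 nM alone and 0 at 200 nM alone, from 328 and 196 IDs that low at those doses.

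**Figure D1:**
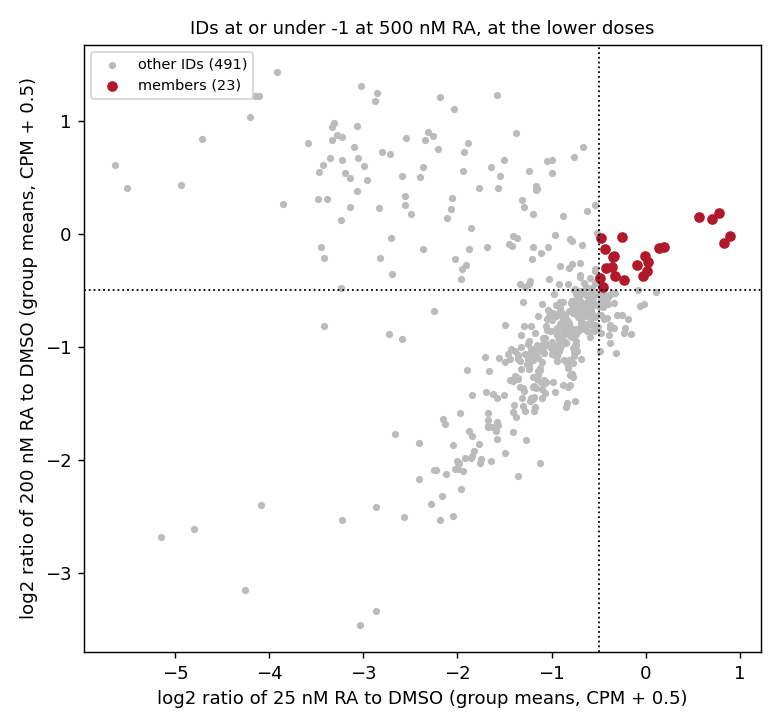
Log2 ratio to DMSO at 25 nM RA (horizontal) and at 200 nM RA (vertical) of the 514 IDs at or under -1 at 500 nM, each point being 1 ID and the dotted lines the bounds of -0.5. A total of 18 members lie between -0.48 and 0.19 at 25 nM, next to the other 491 IDs, which reach at most 0.11, and 5 lie apart to the right, above 0.5.

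The bounds passed through a continuous range of values. At 500 nM the ratios nearest the bound were -1.03 inside and -0.99 outside, and 6 members lay within 0.1 of it against 22 IDs just outside. At 25 nM the nearest values were -0.48 and -0.50, and at 200 nM -0.47 and -0.50. The lowest DMSO mean was 3.58 CPM among members and 2.80 CPM for the nearest ID below the floor.

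In DMSO the members ran from 3.58 to 164 CPM, with a median of 15.8 CPM, close to the 16.2 CPM of all 16091 IDs. There were 13 members at or over 10 CPM. At 500 nM they kept 20.5% to 47.6% of their DMSO mean. Summed over the 23 members, the level was 618 ± 3.04 CPM in DMSO, 609 ± 22.2 CPM at 25 nM, 529 ± 60.6 CPM at 200 nM and 268 ± 34.6 CPM at 500 nM (SD, n = 3 libraries each). The sum at 25 nM joins opposite changes, since 5 members had a log2 ratio over 0.5 there and 10 had one under -0.25. The most abundant member, number 16, held 164 ± 4.73 CPM of the DMSO sum and 75.8 ± 7.46 CPM of that at 500 nM (SD, n = 3).

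XBXL10_1g2688, number 2, had the lowest ratio at 500 nM among the members with counts in every library. Its level was 23.6, 24.6 and 23.9 CPM in the DMSO libraries and 24.2, 25.4 and 23.1 CPM at 25 nM RA. It stood at 16.2, 18.7 and 22.1 CPM at 200 nM, and at 7.82, 4.90 and 6.34 CPM at 500 nM. The 25 nM libraries overlapped those of DMSO, the 200 nM libraries were all below both, and the 500 nM libraries were lower again. The log2 ratios to DMSO were 0.01, -0.33 and -1.84 with rising dose, from 437 to 587 counts in a DMSO library and 106 to 306 at 500 nM.

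Member 3 was the most even at 500 nM. It had 9.07, 7.93 and 9.71 CPM in DMSO, 9.91, 7.45 and 9.13 CPM at 25 nM and 6.99, 8.11 and 8.08 CPM at 200 nM. The 500 nM libraries held 2.35, 2.36 and 2.20 CPM, so the first 3 groups overlapped and the last stood alone.

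XBXL10_1g9451, number 1, had the lowest ratio at 500 nM, -1.90, and it rested on zeros that did not follow the dose. It had 129, 75 and 173 counts in the DMSO libraries (6.16, 4.22 and 7.06 CPM) and 140, 0 and 0 counts at 500 nM (3.58, 0 and 0 CPM). At 25 nM it had 250, 0 and 118 counts, while at 200 nM it had 179, 90 and 129. A count of 0 allows up to 3 counts, or 0.139 and 0.129 CPM in 500 nM replicates 2 and 3 and 0.125 CPM in 25 nM replicate 2, and such limits cover counting error only. In 500 nM replicate 1 its ratio was -0.63, above the bound of -1. The counts of 0, 1 of them in a 25 nM library, set it apart from the other 22 members, which had at least 18 counts in every library. The 61.5% of its DMSO mean left in 500 nM replicate 1 did not, since member 18 kept 57.1% there. RSEM divides reads that match several genes, so the counts of an ID with a near-identical copy are estimates. No member had the same 12 counts as another ID, but copies need not have equal counts. Whether a member has such a copy was not tested.

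**Figure D2:**
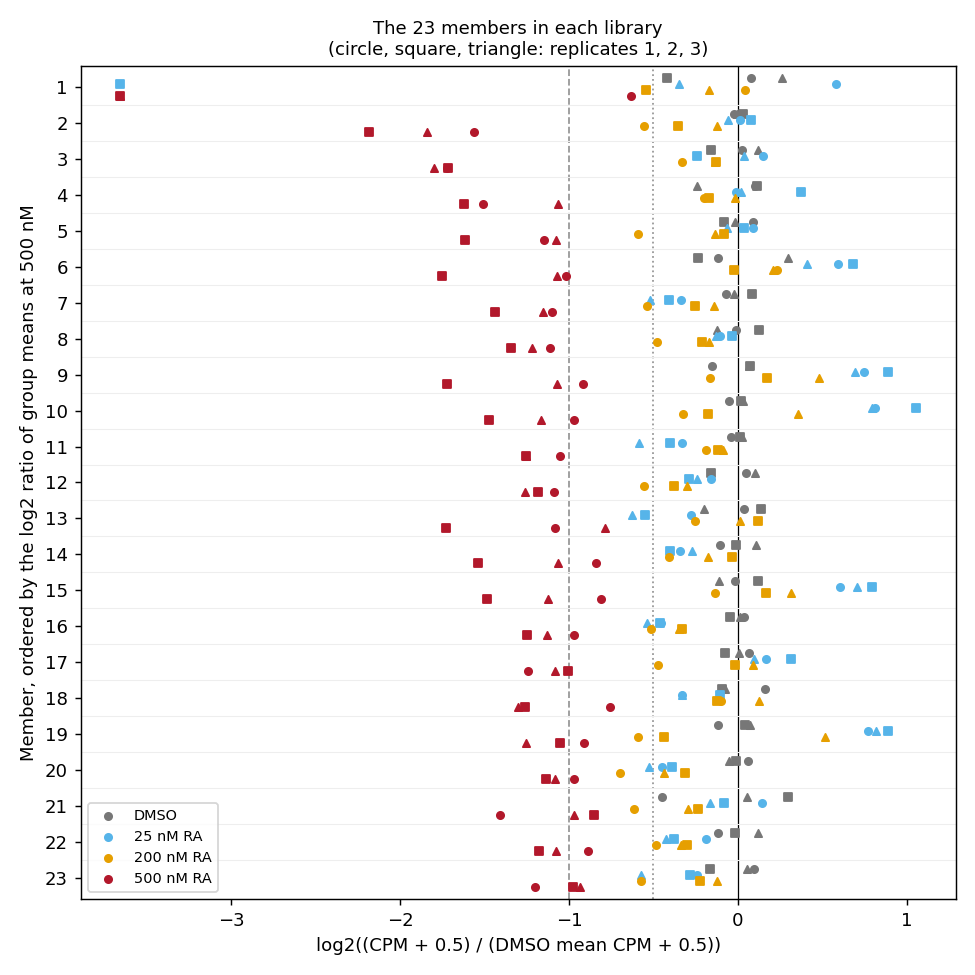
Log2 ratio of each library to the DMSO mean (horizontal) for each member (vertical, 1 lowest at 500 nM), with colours for the dose and shapes for replicates 1 to 3. The dashed line is the bound at 500 nM and the dotted line that at the lower doses. The 500 nM libraries lie left of the rest for 22 members, and 10 members have all 3 of them at or under -1.

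The 3 libraries at 500 nM did not give the same depth of fall. The median log2 ratio over the 23 members was -1.05 in replicate 1, -1.44 in replicate 2 and -1.12 in replicate 3, which correspond to 46.2%, 35.0% and 43.2% of the DMSO mean. At or under -1 stood 13 members in replicate 1, 21 in replicate 2 and 20 in replicate 3. All 3 libraries met that bound for 10 members, only 2 of them for 11 and only 1 for 2. The highest value of any member was -0.63, -0.85 and -0.79 in the 3 libraries, so none reached -0.5.

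Replicate 2 was the lowest 500 nM library for 15 of the 23 members (65.2%), and replicate 1 the highest for 16. The other 491 IDs that were low at 500 nM had replicate 2 lowest in 63.3%, against 22.9% of all 16091 IDs. Replicate 1 was the highest for 69.6% of the members, 59.3% of the other 491 and 27.2% of all IDs. The log2 ratio of replicate 2 to the mean of replicates 1 and 3 had a median of -0.25 for the members, -0.21 for the other 491 and 0.05 for all IDs. The members did not stand apart from the other low IDs in this respect, and no test was made, since IDs are not replicates. Replicate 1 was also the most deeply sequenced library, and the part of depth in its higher values was not tested.

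Over all 16091 IDs the median ratio was -0.13, -0.09 and -0.14 in 500 nM replicates 1, 2 and 3. The members' medians there were -1.05, -1.44 and -1.12. Membership near the bound still depended on scaling, since 17 of the 23 members met the rule with TMM factors. In 200 nM replicates 2 and 3 the members' median was -0.18 and -0.13, against -0.03 in both for all IDs. In 200 nM replicate 1 it was -0.47, against -0.23 for all IDs. This library was the lowest at 200 nM for 20 of the 23 members, and the share of all IDs lowest there was not counted. Without this library 31 IDs met the rule, the 23 members among them.

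**Figure D3:**
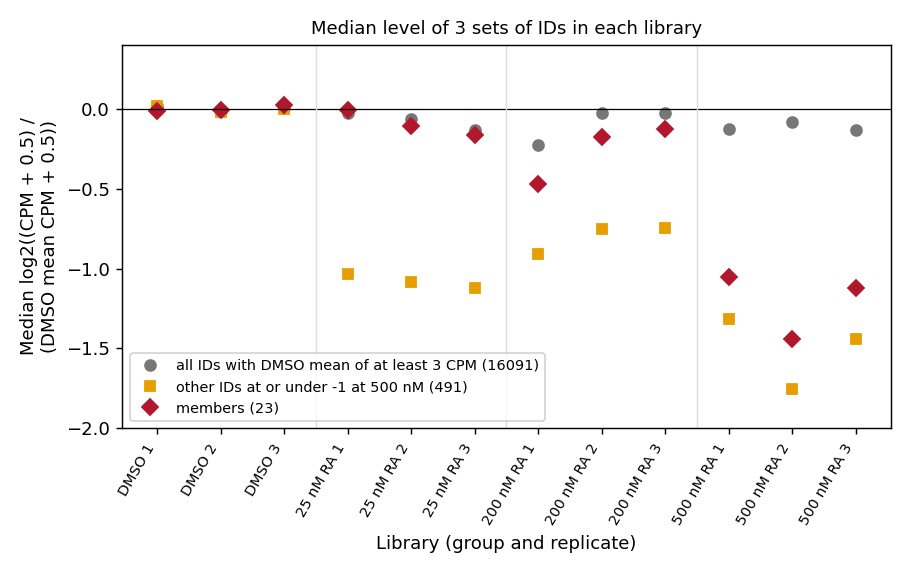
Median log2 ratio to the DMSO mean (vertical) in each of the 12 libraries (horizontal) for the 23 members, the other 491 IDs at or under -1 at 500 nM, and all 16091 IDs with at least 3 CPM in DMSO. The members follow all IDs at 25 nM and lie lower than them in each 200 nM library, most so in replicate 1. They fall to between -1.05 and -1.44 at 500 nM, while the other 491 IDs are near -1.03 or lower already at 25 nM.

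Each member had its highest 500 nM library below its lowest DMSO library and below its lowest 200 nM library, and 22 of 23 were so against 25 nM, the exception being XBXL10_1g9451. Among the 16091 IDs this order was seen in 41.6% against DMSO, 18.1% against 200 nM and 21.3% against 25 nM. In 22 members the 3 libraries at 500 nM were below all the other 9 libraries, an order seen in 8.97% of all IDs. At 25 nM all libraries were below DMSO in 9 members (34.2% of all IDs) and above it in 6 (20.1%). At 200 nM they were below DMSO in 9 (29.7%) and above it in 0 (9.9%). The rule used these contrasts, and nothing is read from the counts.

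The members were not all level at the lower doses. In edgeR's quasi-likelihood test over the 24454 IDs that passed the filter on low counts, with a call at an adjusted p under 0.05, 6 of the 23 had a called fall against DMSO at 25 nM and 6 had one at 200 nM, which together are 8 members. The share of all IDs tested with a called fall was 20.3% at 25 nM and 12.9% at 200 nM. The calls at 25 nM were falls of 0.18 to 0.43 on the log2 scale, and those at 200 nM of 0.20 to 0.40. Another 5 members were called higher than DMSO at 25 nM, where 19.6% of all IDs were, 0 were called higher at 200 nM, against 14.6%, and 10 were called at neither lower dose. At 500 nM 22 members were called lower, against 22.6% of all IDs, and the exception was again XBXL10_1g9451. The same 22 were called lower at 500 nM than at 200 nM, against 15.1% of all IDs, and lower than at 25 nM, against 8.13%. None was called higher in these contrasts, where 14% and 8.85% of all IDs were. These contrasts were part of the choice, and the counts serve only to describe the label. The sizes of change behind the label of a fall at 500 nM alone were set by the rule. That label does not mean that members were level at the lower doses. The called falls there made up 26.1% of members at 25 nM, near the 20.3% of all IDs tested, and 26.1% at 200 nM, against 12.9%. The 24454 IDs tested include IDs under the floor of 3 CPM that members had to pass, which 16091 IDs reached. These shares are therefore of unlike sets, and nothing is read from their differences. The shares of all IDs called lower at either of these doses, or called at neither, were not counted. The 8 and the 10 members are thus not set against all IDs.

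At 25 nM the members were split into 3 shapes after their values were seen. Only the first was set apart by a gap, since the cut between the other shapes fell in a continuous range. In 5 members (6, 9, 10, 15 and 19) the ratio at 25 nM was 0.57 to 0.89, and at 200 nM it was between -0.08 and 0.19. In 8 members it lay between -0.23 and 0.19 at 25 nM, with -0.41 to -0.11 at 200 nM. In the other 10 it was -0.48 to -0.25 at 25 nM and -0.47 to -0.03 at 200 nM. From 25 to 500 nM the log2 ratio was -2.08 to -1.81 in the first shape, -1.85 to -0.95 in the second and -1.55 to -0.61 in the last.

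XBXL10_1g32490, number 10, had the highest ratio at 25 nM, 0.89. Its level was 21.9, 23.1 and 23.2 CPM in DMSO and rose to 40.2, 47.7 and 39.8 CPM at 25 nM. It was 18.0, 20.05 and 29.2 CPM at 200 nM and 11.3, 7.86 and 9.84 CPM at 500 nM. The 25 nM libraries stood above all others, those at 200 nM spread around DMSO with replicate 3 the highest, and those at 500 nM were the lowest.

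XBXL10_1g30134, number 19, repeated that order at a lower level. Scaled by TMM factors it no longer met the rule. It had 3.72, 4.22 and 4.32 CPM in DMSO, 7.33, 7.99 and 7.58 CPM at 25 nM and 1.94, 1.71 and 1.42 CPM at 500 nM. At 200 nM it had 2.54, 2.89 and 6.06 CPM, so that replicate 3 lay nearer to the 25 nM libraries and the other two below DMSO. Among the 5 members of this shape, 200 nM replicate 3 was the highest library at 200 nM in 4, and 500 nM replicate 2 the lowest at 500 nM in 4. Members 9 and 15, the most abundant of the 5, went from 51.5 ± 4.54 and 47.8 ± 3.85 CPM in DMSO to 88.7 ± 6.38 and 78.2 ± 5.06 CPM at 25 nM (SD, n = 3). At 500 nM they stood at 22.2 ± 6.17 and 21.8 ± 5.14 CPM (SD, n = 3).

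**Figure D4:**
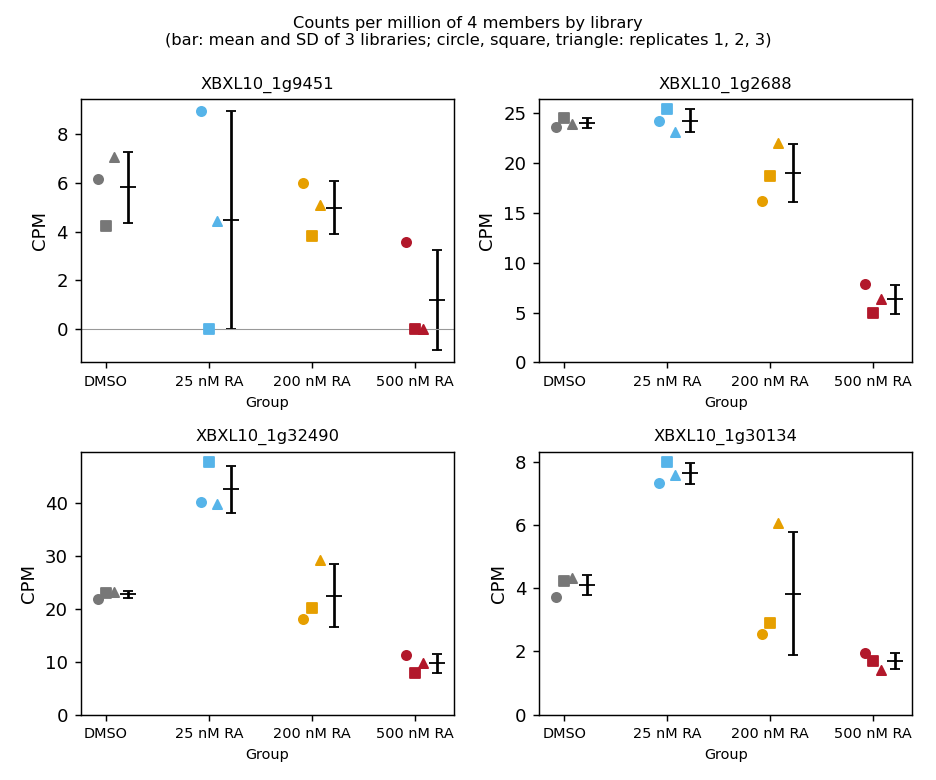
Level in CPM (vertical) of 4 members in each library by group (horizontal), with the mean and SD of 3 libraries as a bar beside the points. XBXL10_1g9451 has counts of 0 in 25 nM replicate 2 and in 500 nM replicates 2 and 3, XBXL10_1g2688 is level at 25 nM and lowest at 500 nM, and XBXL10_1g32490 and XBXL10_1g30134 are highest at 25 nM.

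In the comparison of 200 with 25 nM RA, members had needed only to lie above the same bound at both doses, so the rule used both levels but set no direction between them. At 200 nM 4 members were called lower than at 25 nM and 1 higher by edgeR, while 9.66% of all IDs tested were called lower and 10.2% higher. Together these are 21.7% of the members and 19.9% of all IDs, a share near the background in this fit. Those called lower were XBXL10_1g2688, XBXL10_1g32490, XBXL10_1g30134 and member 15. The log2 fold change was -0.99 (SE 0.189) for XBXL10_1g30134, -0.91 (SE 0.160) for XBXL10_1g32490 and -0.56 (SE 0.149) for member 15, all of them set apart above for high values at 25 nM, so these are descriptions. For XBXL10_1g2688 it was -0.33 (SE 0.0897, edgeR adjusted p = 0.00616). That call was lost by limma on log2(TPM + 1) (adjusted p = 0.103) and on log2(TPM + 0.1) (adjusted p = 0.153), and by edgeR without 200 nM replicate 2 (adjusted p = 0.0512). Member 15 also lost its call in that last fit, while XBXL10_1g32490 and XBXL10_1g30134 kept theirs. Member 11 was the one called higher, by 0.34 (SE 0.0699, edgeR adjusted p = 0.000208). It lost that call in both limma fits, in which no member was called higher. Its level was 24.03, 22.8 and 20.04 CPM at 25 nM and 26.6, 27.9 and 28.5 CPM at 200 nM, with no overlap, and 14.4, 12.4 and 12.4 CPM at 500 nM. The rule also used the 25 and 200 nM values of XBXL10_1g2688 and member 11, so these calls too are descriptions.

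The median log2 fold change from 25 to 200 nM was -0.17 over the members and 0.00 over all IDs tested. All 3 libraries at 200 nM were below those at 25 nM in 12 members, an order seen in 15.4% of the 16091 IDs, and above them in 2, against 7.78%. The 12 include the 5 members picked out as over 0.5 at 25 nM, and the rule used both doses, so nothing is read from these counts. Without 200 nM replicate 2 the members called lower were 2, where 1664 of all IDs were. With only the 25 and 200 nM libraries in the fit, 7 members were called lower and 3 higher. Over all IDs that fit called 2480 lower and 2571 higher. The share near the background given above is thus that of the main fit, and the members' share was larger in the fit of these 2 groups alone.

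Each library was also left out of the choice in turn. With the rule applied to the other 11 libraries, the IDs so chosen were read in the library set aside. Without 500 nM replicate 1, 33 IDs were chosen, and in replicate 1 their median ratio to DMSO was -0.91, with 11 of the 33 at or under -1. Without replicate 2 there were 22 IDs, with a median of -1.25 in replicate 2 and 16 at or under -1. Without replicate 3 there were 24, with a median of -1.08 and 18 at or under -1. Of all IDs, 2.90%, 3.73% and 3.28% were that low in the same 3 libraries. The same DMSO libraries entered the choice and the reading. The IDs had also been chosen for low means over the other 500 nM libraries, so the reading only describes how far the 3 libraries agree. The median fall was smallest in replicate 1, where 11 of the 33 IDs reached -1 and 2 were above -0.5.

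Leaving out DMSO libraries gave a weaker view, since the same 500 nM libraries chose the IDs and entered the ratio. The 25, 28 and 34 IDs chosen without DMSO replicate 1, 2 or 3 had a median log2 ratio of 500 nM to the DMSO library left out of -1.19, -1.11 and -1.21, with 23, 20 and 30 of them at or under -1, against 3.33%, 3.23% and 3.22% of all IDs. In 200 nM replicate 1, 14 of the 31 IDs chosen without it were above -0.5, where 87.4% of all IDs were. In replicates 2 and 3 it was 21 of 24 and 22 of 23, against 94.7% and 95.1% of all IDs. In the 25 nM libraries it was 21 of 25, 21 of 23 and 17 of 26, against 93.4%, 92.4% and 90.4%. The shares among the chosen IDs were thus lower than over all IDs in 200 nM replicates 1 and 2 and in 25 nM replicates 1 and 3. The gap was widest in 200 nM replicate 1 and 25 nM replicate 3. In 200 nM replicate 3 and 25 nM replicate 2 the shares were near those of all IDs.

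**Figure D5:**
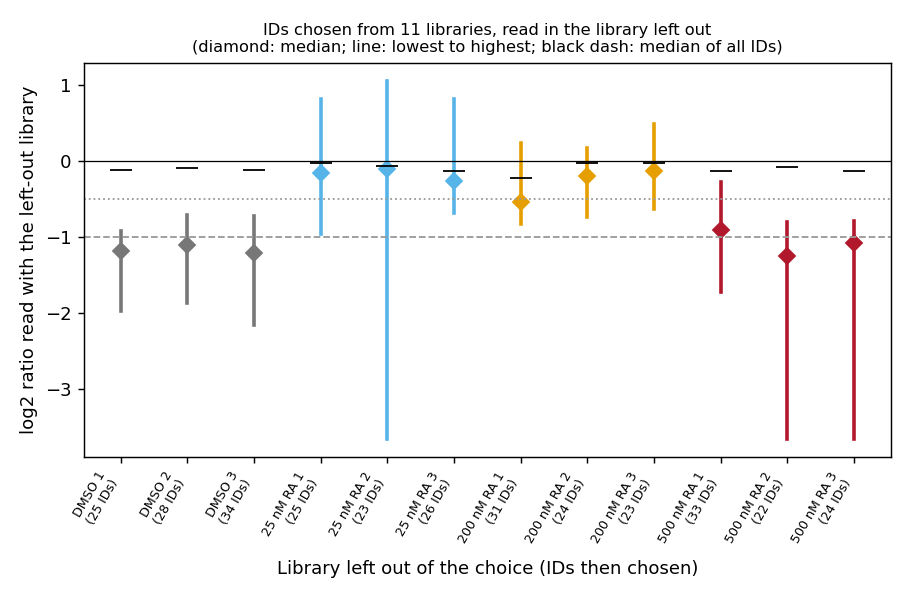
Log2 ratio read with the library left out of the choice (vertical) for each of the 12 libraries (horizontal, with the number of IDs then chosen). Diamonds are medians and lines run from the lowest to the highest ID, and for DMSO libraries the ratio is that of the 500 nM mean to the library left out. The medians are -0.91 to -1.25 at 500 nM, and the median of all IDs (black dash) lies between -0.23 and -0.03 throughout.

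Which IDs were members depended on the libraries. Leaving out 1 library gave 22 to 34 IDs, and 11 of the 23 members were chosen in all 12 of those repeats. XBXL10_1g2688 and XBXL10_1g32490 were among these 11, while XBXL10_1g9451 and XBXL10_1g30134 were each chosen in 10 repeats. Without 500 nM replicate 2, the lowest of its group, 18 of the 23 members (78.3%) were kept among 22 IDs. Without 500 nM replicates 1 and 3 and 200 nM replicate 3, which leaves 1 library at 500 nM, 65 IDs met the rule, 20 of them members.

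Some properties were not named in the rule. The TPM level in DMSO still comes from the libraries that set the floor of 3 CPM, so it is not apart from the choice. Per length, in deposited TPM, the members had a median of 4.90 TPM in DMSO, against 5.41 for the other 491 IDs low at 500 nM and 9.64 for all 16091 IDs. The ratio of count to TPM gives a relative transcript length, whose median was 1.20 times that of all IDs for 22 members and 1.15 times for 457 of the 491, the IDs with values above 0 in all libraries. That length differed between 500 nM and DMSO by -0.20 to 0.15 on the log2 scale over the 22 members, with a median of 0.00. Member 6, whose relative length was 42.9, had only 0.06 TPM in DMSO for 4.45 ± 0.999 CPM (SD, n = 3). On log2(TPM + 0.5) the members' ratios at 500 nM ran from -1.70 to -0.10, since 0.5 TPM is large beside the lowest of these levels.

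The spread between libraries was measured by the coefficient of variation (CV). In DMSO the median CV was 8.58% for the members and 6.17% for all IDs, and at 500 nM it was 18.0% and 6.30%. The other 491 IDs low at 500 nM had a median of 18.0% as well. At 25 nM it was 8.94% for the members and 6.66% for all IDs, and at 200 nM 13.5% and 9.90%. The members' median was thus above that of all IDs in every group. This was not particular to the members. The other 491 IDs had medians of 7.82% in DMSO, 11.6% at 25 nM and 14.0% at 200 nM, also above those of all IDs. The members' median was above that of these IDs in DMSO, below it at 25 nM and near it at 200 and 500 nM. Both sets were chosen for low means at 500 nM, so their CV there is not apart from the choice. The choice also used the means in the other groups, so the CVs there are not apart from it either.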

How the data were processed

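Whole-transcriptome RNA of 12 libraries was analysed from 2 deposited tables. The first holds expected counts per gene ID as the authors deposited them, whole numbers that rounding left unchanged. The second holds TPM deposited by the authors for the same IDs. The submitters' processing notes list RSEM 1.3.0 and Bowtie2. How they were combined, and which genome build and gene models were used, is not given in the sources used here. A row naming no gene held 0% of the counts and was left out. CPM were counts scaled by the column total. Tests used edgeR 4.0.16 in R 4.3.3 (filterByExpr with a minimum count of 10, TMM factors, robust quasi-likelihood fit of 4 groups over 12 libraries, Benjamini-Hochberg over 24454 IDs, call at an adjusted p under 0.05). Standard errors are the log2 fold change divided by the square root of F. The edgeR steps were also run on simulated counts with 200 IDs changed and the same spread for all IDs. That run does not cover the uneven spread between these libraries, and nothing is read from it. No pair of replicates agreed within counting error, with a chi-square of 2.90 to 88.3 for each degree of freedom, and all 12 libraries were kept. Named IDs are the 2 members lowest at 500 nM whose 500 nM and DMSO libraries do not overlap and the 2 highest at 25 or 200 nM. The fixed gene lists could not be used without symbols. Alternatives were DESeq2 1.42.0, limma 3.58.1, other scalings, bounds and pseudocounts, and libraries left out. The members, lists and tests were chosen with earlier results of these data known.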

Additional observations from a re-analysis of the deposited data

How the results depend on the processing

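The number of members was 23. It was 35 with TPM in place of CPM (12 shared with the 23), 39 and 13 with a DMSO floor of 1 and 10 CPM, 10 when every 500 nM library had to reach -1, 8 with bounds of -0.25 at the lower doses, and 22 to 34 without 1 library. With TMM or DESeq2 size factors it was 32, of which 17 were members. TMM raised the median ratio of all IDs by 0.09 at 500 nM, and at 200 nM moved it from -0.09 to -0.01; the cause of the changed count was not tested. In all, 6 of the 23 were kept under TMM, size factors, TPM and all single libraries left out. Of the 4 named IDs only XBXL10_1g2688 was among these 6. XBXL10_1g9451 and XBXL10_1g32490 did not meet the rule with TPM, nor XBXL10_1g30134 with TMM or size factors. Without 500 nM replicates 1 and 3 and 200 nM replicate 3, a setting added after seeing the data, the number meeting the rule was 65, of which 20 were members. At 200 against 25 nM, members called higher were 0 by limma on log2(TPM + 1) or log2(TPM + 0.1), 0 with at least a 2-fold change, 3 with no filter and 3 with the 25 and 200 nM libraries alone. Members called lower were 7 in that last fit, 0 with at least a 2-fold change and 2 to 6 without 1 library, with the 2 found without 200 nM replicate 2. All IDs called higher and lower were 2504 and 2362, against 844 and 1309 by limma on log2(TPM + 1), 818 and 1264 on log2(TPM + 0.1), and 904 and 91 with at least a 2-fold change. With the 25 and 200 nM libraries alone they were 2571 and 2480, and with no filter 2612 and 2313. The cause of the limma counts was not tested. The log2 fold change of XBXL10_1g9451 at 200 against 25 nM was 0.18, ran from -0.38 to 1.13 without 1 library, and was negative without 25 nM replicate 2 (-0.38) and without 200 nM replicate 1 (-0.06). With a replicate block 1 member was called higher and 3 lower; libraries that share a number had deviations correlated by -0.05 to 0.11 over 18 pairs, and 4 of 12 were closest to a library of their own number, so the block is an alternative only. The other 147 alternative values of main results stayed within 1.5 times, or 1 SD of the 3 medians, of those reported. Depth limits members near the floor of 3 CPM, with as few as 18 counts in a library, apart from XBXL10_1g9451, which had 0 in 3 libraries.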
